A study of Mus musculus with 12 samples.

Results

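The Notch pathway genes described here were the 4 receptors Notch1, Notch2, Notch3 and Notch4, the 3 ligands Dll4, Jag1 and Jag2, and the 3 transcription factors Hey1, Hey2 and Heyl. These 10 genes were taken by name from an expression table of 26190 genes, and each name was found. The table holds 12 bulk RNA libraries in 4 groups of 3. Atria and ventricles were cut from hearts of C57BL/6 mouse embryos at E11.5 (E11.5H). Atrium-like and ventricle-like parts were cut by hand from heart organoids (HOs) on day 13 of culture. HOs are beating structures that formed from embryoid bodies of wild-type mouse embryonic stem cells on a gelated laminin-entactin complex with FGF4, and BMP4, the kinase inhibitor BIO and LIF were added late in culture. The labels give C57BL/6 for HOs too, while the methods name stem cell lines of C57BL/6 and of its F1 hybrid with JF1, without saying which line gave which library. Whether an atrium-like and a ventricle-like library with the same number came from the same HO is not stated, and the p-values below measure only the spread between these libraries.

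Notch receptors sit in the cell membrane and are activated by Delta-like and Jagged ligands on neighboring cells. Activation cuts the receptor and frees its inner domain, which joins the DNA-binding protein Rbpj in the nucleus and switches on target genes, the Hey genes among them. Hey proteins are transcriptional repressors. In the embryonic heart the pathway is known for signals between the endocardium and the muscle wall during trabeculation and valve formation, with Hey1 known as a gene of atrial and Hey2 as a gene of ventricular muscle.

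The promoter of Hey2 is shown because Hey2 was called in E11.5H and also between ventricle-like parts and ventricles, and because a binding motif of Rbpj was present there. Promoters were matched for 8 of the 10 genes in RefSeq (GRCm38.p6), each from 250 bases before the start of the gene to 50 bases after it, and none was matched for Hey1 and Heyl. TGGGAA, searched on both strands, was present in 8397 of 32851 promoters (25.6%), and CGTGGGAA, a longer form that contains it, in 241 (0.734%). Among the 8 promoters only that of Hey2 held either motif. It held the longer form at -207 to -200 on the opposite strand and at -5 to 3 on the strand of the gene, with 1 as the first base of the gene and no position 0. The 253 bases up to that second match, on the minus strand of chr10:30842781-30843033, have both matches in capitals.
Hey2 promoter: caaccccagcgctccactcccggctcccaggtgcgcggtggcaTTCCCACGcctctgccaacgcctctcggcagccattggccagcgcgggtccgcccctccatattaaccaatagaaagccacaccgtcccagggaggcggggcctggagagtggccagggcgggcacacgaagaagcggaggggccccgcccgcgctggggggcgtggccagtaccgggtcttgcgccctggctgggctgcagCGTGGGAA
A match describes these letters and does not show that Rbpj binds there.

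The libraries held 23971258 to 30540993 fragments assigned to genes. Replicates correlated at Pearson r = 0.983 to 0.989 in E11.5H and at 0.820 to 0.937 in HOs, on log2 CPM across genes, which are not independent. Hemoglobin genes took 0.515% to 5.01% of the fragments of E11.5H and at most 0.00185% in HOs. The 16 cardiomyocyte markers summed to 37758 to 47578 CPM in E11.5H, 4967 to 12346 CPM in ventricle-like parts and 1421 to 3777 CPM in atrium-like parts. The 10 endothelial markers summed to 624 to 781 CPM in E11.5H, 54.5 to 199 CPM in ventricle-like parts and 31.6 to 239 CPM in atrium-like parts. Library 2 of each HO part had all 10 endothelial markers, and the other 4 HO libraries had 1 of them at 0 each, namely Emcn or Tie1 in atrium-like parts and Cldn5 in ventricle-like parts. The 8 atrial markers summed to 145 to 453 CPM in atrium-like and 597 to 1634 CPM in ventricle-like parts. This order went against the labels of HOs and was that of the cardiomyocyte markers too. The 6 ventricular markers summed to 73.5 to 331 CPM in atrium-like and 227 to 1094 CPM in ventricle-like parts. Genes of liver and visceral endoderm were at 955 to 21812 CPM in atrium-like parts, 55.2 to 9903 CPM in ventricle-like parts and 5.06 to 10.7 CPM in E11.5H.

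**Figure D1:**
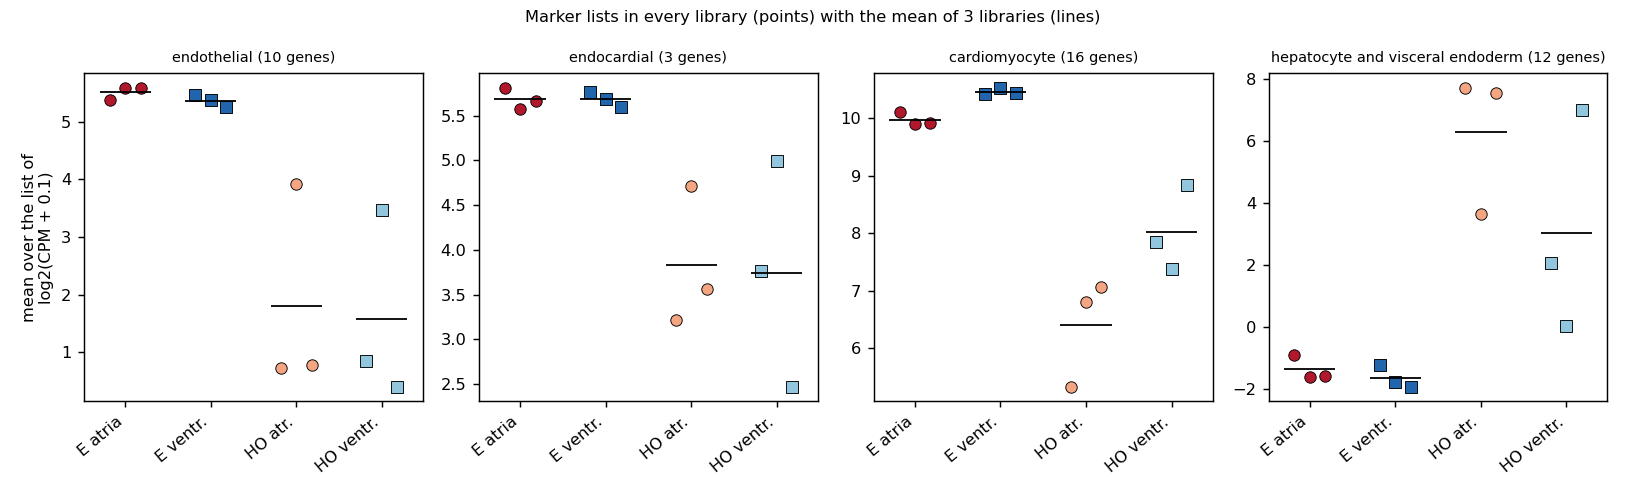
Mean of log2(CPM + 0.1) over the genes of 4 marker lists (vertical axes) in each of the 12 libraries (points) by group, with the mean of 3 libraries as a line. The endothelial mean was 5.26 to 5.58 in E11.5H, 3.92 and 3.46 in library 2 of the atrium-like and ventricle-like parts, and 0.409 to 0.850 in the other HO libraries.

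A gene was called when edgeR's quasi-likelihood test gave it an adjusted p under 0.05 (Benjamini-Hochberg over all genes tested) and its log2 fold change lay outside -1 to 1. Between the chambers of E11.5H, 3 of the 10 genes were called, Hey1 and Jag1 higher in atria and Hey2 higher in ventricles, with 4.90% of all 14536 tested genes called. Between the parts of HOs, edgeR called 0 of the 10 genes and 0% of 15703 tested genes. None of the 10 had an unadjusted p under 0.05 there, against 5.66% of all genes, and DESeq2 and limma-voom also called 0 of the 10, with 59 and 0 calls over all genes. Against atria of E11.5H, atrium-like parts had lower Hey1, Jag1 and Heyl, 3 of 10 called lower where 8.81% of 15418 genes were. Against ventricles, ventricle-like parts had lower Hey2, Dll4 and Heyl, 3 of 10 called lower where 7.35% of 15094 genes were. These directions hold after TMM normalization, and the signs of Hey1, Jag1 and Heyl turned under scalings to marker genes that are given with each gene. With TMM normalization none of the 10 was called higher in HOs, where 16% and 11.6% of all genes were.

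The difference of the chamber differences (the log2 fold change of atrium-like against ventricle-like parts minus that of atria against ventricles) was also tested over all 12 libraries. edgeR called 0 of the 10 genes and 0.152% of 16494 genes. An unadjusted p under 0.05 was found for 2 of the 10, Hey1 and Jag1, and for 11.7% of all genes. DESeq2 called these 2 genes and 455 of all genes, and limma-voom called 0 of the 10 and 12 of all genes.

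**Figure D2:**
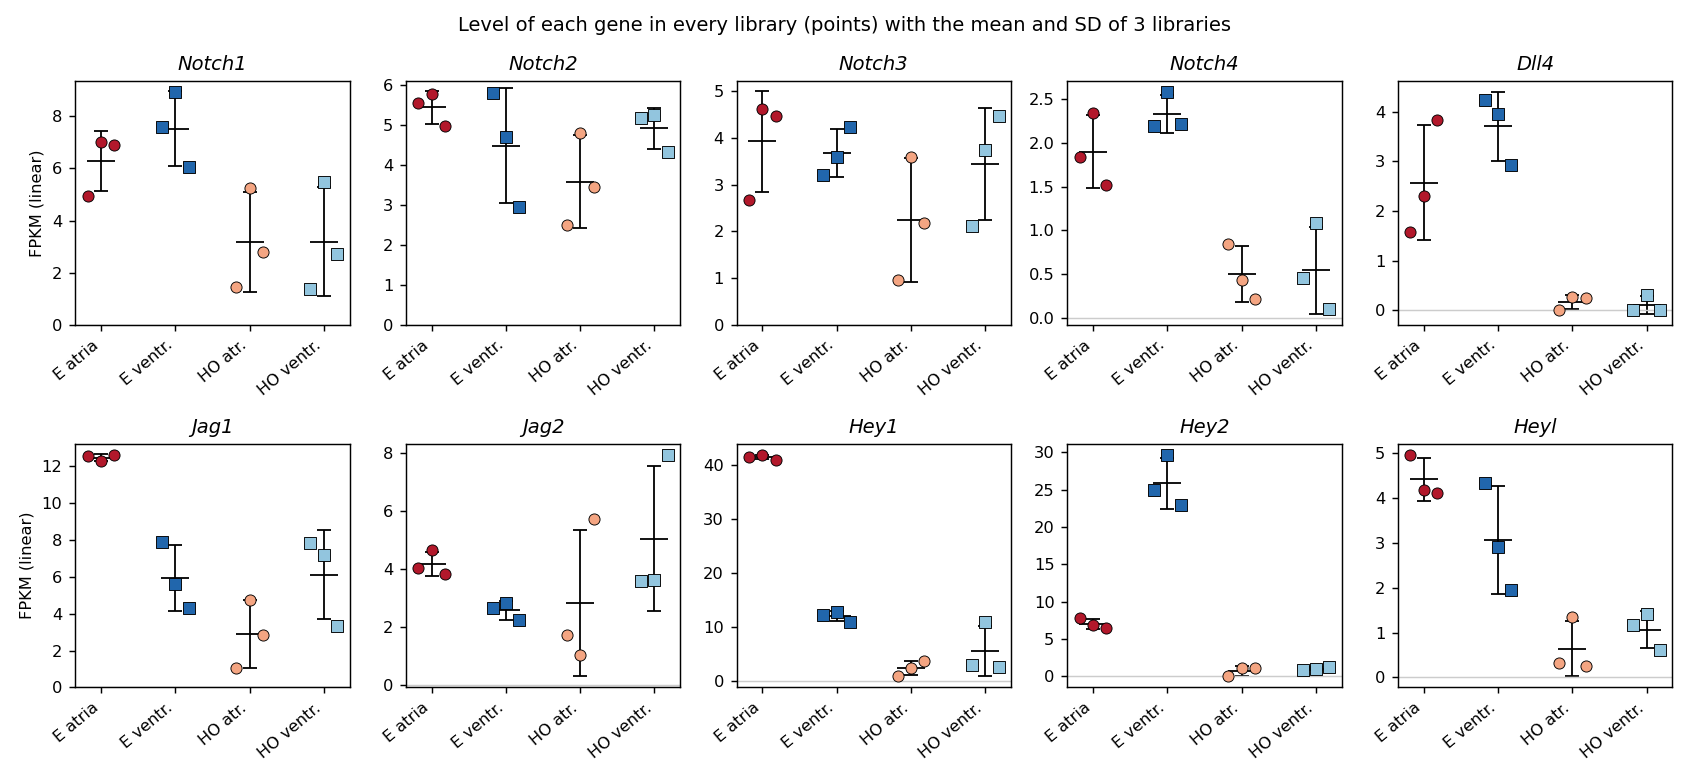
FPKM (vertical axes, linear) of the 10 genes in each library (points) by group, with the mean and SD of 3 libraries. Hey1 is at 41.1 to 41.9 in atria of E11.5H and Hey2 at 23.0 to 29.7 in ventricles, while HO libraries reach at most 10.9 for Hey1 and 1.21 for Hey2.

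Hey1 (chromosome 3, 8663359 to 8667038, minus strand, GRCm38/mm10) was the most abundant of the 10 genes in atria of E11.5H. Levels are given as the deposited FPKM, which scale the fragments of a gene by its transcript length and by the library total. Its FPKM was 41.7, 41.9 and 41.1 in the 3 atrial libraries and 12.1, 12.8 and 10.9 in the 3 ventricular libraries. The chambers did not overlap, and the 3 libraries of each lay close together. Hey1 was 3.31-fold higher in atria, or 1.73 on the log2 scale (edgeR standard error 0.083, adjusted p = 1.39e-06). Standard errors here and below were back-calculated from edgeR's test, as described with the processing.

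In HOs the FPKM of Hey1 was 0.951, 2.42 and 3.57 in atrium-like parts and 2.96, 10.9 and 2.60 in ventricle-like parts. The parts overlapped, and ventricle-like library 2 stood apart at the level of embryonic ventricles. The neural markers were also highest in that library, at 806 CPM against 21.7 and 150 CPM in the other ventricle-like libraries. So were the summed skeletal muscle (119 CPM), endocardial (106 CPM), macrophage (730 CPM) and smooth muscle and pericyte (1640 CPM) markers. The other marker lists, among them cardiomyocyte and endothelial, had their highest sum in another ventricle-like library. By mean log2(CPM + 0.1), however, the endothelial markers were highest in ventricle-like library 2, at 3.46 against 0.850 and 0.409 in libraries 1 and 3. The part of these cell types in the Hey1 value was not tested. The log2 fold change of atrium-like against ventricle-like parts was -1.10 (standard error 0.73, edgeR adjusted p = 0.750), and the difference of the chamber differences was -2.79 (standard error 0.74, edgeR adjusted p = 0.228, DESeq2 adjusted p = 0.0119).

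All 3 atrium-like libraries lay below all 3 atrial libraries for Hey1, which was 16.2-fold lower after TMM normalization (log2 fold change -4.02, standard error 0.45, edgeR adjusted p = 0.00323). The log2 fold change was -0.75 with libraries scaled to the cardiomyocyte markers and turned to 0.087 with scaling to the endothelial markers, with a standard error of 1.03. Those scalings moved the median of all genes by 3.55 and 4.04. In these bulk samples, fewer cells of a type and less RNA per cell cannot be told apart. Against ventricles, the log2 fold change of Hey1 in ventricle-like parts was -1.23 (standard error 0.56, edgeR adjusted p = 0.147), and without ventricle-like library 2 it was called at -2.17 (edgeR adjusted p = 0.00234).

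Hey2 (chromosome 10, 30832359 to 30842783, minus strand), whose promoter is printed above, had the opposite chamber pattern in E11.5H. Its FPKM was 7.82, 6.82 and 6.50 in atria and 25.0, 29.7 and 23.0 in ventricles. Every ventricular library lay above every atrial library. Hey2 was 3.84-fold lower in atria, or -1.94 on the log2 scale (edgeR standard error 0.12, adjusted p = 6.12e-06). This direction and that of Hey1 were kept with libraries scaled to the cardiomyocyte or to the endothelial markers, and the calls of Hey1 and Hey2 were kept without each library in turn. When all 12 libraries shared a fit the log2 fold changes were close to these, 1.71 for Hey1 and -1.95 for Hey2, but the calls were lost (edgeR adjusted p = 0.340 and 0.638). In that fit 30 genes in all were called in place of 712, and the common biological coefficient of variation was 0.551 against 0.211 for E11.5H alone.

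In HOs the FPKM of Hey2 was 0, 1.13 and 1.18 in atrium-like parts and 0.808, 0.979 and 1.21 in ventricle-like parts. All 6 HO libraries were below the lowest atrial library of E11.5H, and the parts overlapped. The log2 fold change between them was -0.29 (standard error 1.45, edgeR adjusted p = 0.960), and 0.28 (standard error 0.58) without atrium-like library 1. Atrium-like library 1 had no Hey2 fragment, which at its depth allows up to 0.125 CPM by counting error alone. The difference of the chamber differences was 1.68 (standard error 1.18, edgeR adjusted p = 0.601), and it was called without atrium-like library 1, at 2.25 (edgeR adjusted p = 0.0243).

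Ventricle-like parts had 27.6-fold less Hey2 than ventricles of E11.5H, or -4.79 on the log2 scale (edgeR standard error 0.22, adjusted p = 7.81e-04). It had the smallest adjusted p of the 10 genes in this comparison and stayed called without each library in turn. Scaled to the cardiomyocyte markers it was still called, at -2.16 (edgeR adjusted p = 0.00355), and scaled to the endothelial markers it was at -0.35 (edgeR adjusted p = 0.736). The median of all genes moved by 2.69 and 4.37 under these scalings. Against atria, Hey2 in atrium-like parts was at -3.09 (standard error 1.22, edgeR adjusted p = 0.0994), every library of the HO part below every atrial library, and it was called without atrium-like library 1, at -2.54 (edgeR adjusted p = 0.00338). With all libraries it was called by DESeq2 (adjusted p = 0.0263), by limma-voom (adjusted p = 0.0484), by limma on log2(FPKM + 0.1) and log2(FPKM + 1), and by edgeR when all 12 libraries shared a fit (adjusted p = 0.0206).

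The balance of Hey1 and Hey2 was compared within each library, as the log2 ratio of their FPKM after adding 0.1 to each. It was 2.40, 2.60 and 2.64 in atria and -1.03, -1.20 and -1.06 in ventricles of E11.5H. Hey1 made up 84.2% to 86.4% of the summed FPKM of both genes in atria and 30.2% to 32.7% in ventricles. The chambers differed by 3.65 on the log2 scale (exact permutation p = 0.1, two-sided, the smallest that 3 against 3 libraries can give).

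In HOs the ratio was 3.39, 1.04 and 1.52 in atrium-like parts and 1.75, 3.35 and 1.05 in ventricle-like parts. Hey1 exceeded Hey2 in all 6 HO libraries, with a share of 68.2% to 100% of the summed FPKM. The 3.39 of atrium-like library 1 rests on a Hey2 value of 0 and on the pseudocount. The parts differed by -0.069 (exact permutation p = 0.9, two-sided), well inside the pooled SD of 1.21. This difference ran from -0.77 without atrium-like library 1 to 0.58 without ventricle-like library 2, so its sign was not fixed. With a pseudocount of 1 FPKM the ratio was 0.964, 0.684 and 1.07 in atrium-like parts. In ventricle-like parts it was then 1.13, 2.59 and 0.707, and the parts overlapped.

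Set against the embryo, the balance of ventricle-like parts lay 3.15 above that of ventricles, with no overlap (exact permutation p = 0.1, two-sided). The balance of atrium-like parts lay 0.56 below that of atria, with overlap (exact permutation p = 0.4, two-sided). The overlap came from atrium-like library 1 alone, whose Hey2 value was 0, and depended on the pseudocount. With 1 FPKM added, the ratio was 0.964, 0.684 and 1.07 in atrium-like parts and 2.27 to 2.49 in atria, without overlap. With 0.1 CPM added to CPM, atrium-like library 1 was at 4.70 and atria at 2.21 to 2.46. Both permutation tests of HO parts against E11.5H were added after the values were seen. With both, 4 comparisons of the ratio were made, and with a smallest p of 0.1 none could pass after adjustment.

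**Figure D3:**
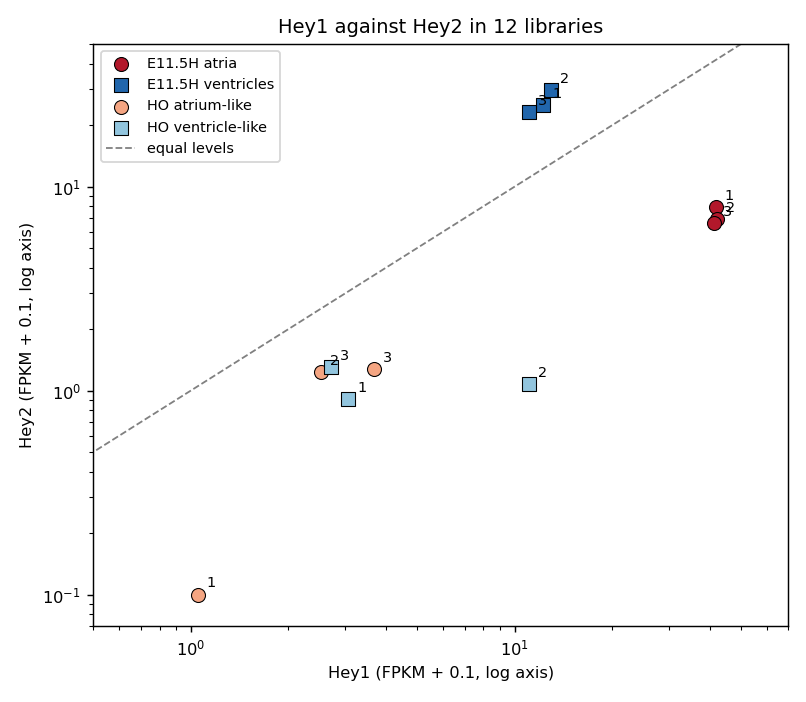
Hey2 against Hey1 in each library, both as FPKM + 0.1 on log axes, with points numbered by replicate and a dashed line where both levels are equal. Atria of E11.5H lie below the line and ventricles above it, while all 6 HO libraries lie below it at lower levels.

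Heyl (chromosome 4, 123233556 to 123249870, plus strand), the third Hey gene, is known from vascular smooth muscle and pericytes. Its FPKM was 4.97, 4.18 and 4.11 in atria, 4.34, 2.91 and 1.94 in ventricles, 0.324, 1.36 and 0.251 in atrium-like parts and 1.17, 1.42 and 0.606 in ventricle-like parts. The chambers overlapped, and all HO libraries lay below all libraries of E11.5H. The log2 fold change between the chambers of E11.5H was 0.47 (standard error 0.24, edgeR adjusted p = 0.243) and that between the parts of HOs was -0.64 (standard error 0.75, edgeR adjusted p = 0.830).

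Atrium-like parts had 6.41-fold less Heyl than atria (log2 fold change -2.68, standard error 0.63, edgeR adjusted p = 0.0226) and ventricle-like parts had 3.06-fold less than ventricles (-1.61, standard error 0.44, edgeR adjusted p = 0.0387). Its sign turned with scaling to the cardiomyocyte markers, to 0.77 and 1.22, and to the endothelial markers, to 0.59 and 2.52. Without each of the 3 atrial libraries the log2 fold change in atrium-like parts was -2.58 to -2.74, and the call was lost (edgeR adjusted p from 0.0697 to 0.0809), in fits where the calls over all genes fell from 3821 to between 1662 and 1726. In ventricle-like parts it was -1.31, -1.67 and -1.85 without ventricular library 1, 2 or 3 and -1.73 without ventricle-like library 1, and the call was lost (edgeR adjusted p = 0.145, 0.116, 0.0706 and 0.0775). The call in ventricle-like parts was also lost when all 12 libraries shared a fit (-1.61, edgeR adjusted p = 0.0565). By limma on log2(FPKM + 1) it was lost on size, at -0.96. The 8 smooth muscle and pericyte markers summed to 3095 to 4277 CPM in E11.5H and 275 to 1640 CPM in HOs. By their mean log2(CPM + 0.1) E11.5H and HOs overlapped, at 5.75 to 6.79 and 3.72 to 6.06. The part of these markers in the Heyl values was not tested.

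Dll4 (chromosome 2, 119325784 to 119335666, plus strand) encodes a ligand made chiefly by endothelial cells, and its fitted fold changes against E11.5H were the largest of the 3 ligands. Its FPKM was 1.59, 2.30 and 3.84 in atria and 4.23, 3.96 and 2.92 in ventricles of E11.5H, from at least 194 fragments a library. The chambers overlapped, and the log2 fold change, -0.59 (edgeR standard error 0.29, adjusted p = 0.230), was called only without atrial library 3, at -1.01 (edgeR adjusted p = 0.0354).

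In HOs the FPKM of Dll4 was 0, 0.265 and 0.247 in atrium-like parts, from 0, 31 and 27.7 fragments, and 0.0177, 0.310 and 0 in ventricle-like parts, from 2, 35 and 0 fragments. Every HO library lay below every library of E11.5H, and the parts of HOs overlapped (log2 fold change 0.75, standard error 1.98, edgeR adjusted p = 0.925). Library 2 of each part had the most Dll4 of its group and also the highest mean log2 CPM of the endothelial markers. By summed CPM of these markers, ventricle-like library 1 lay above library 2, at 199 against 158 CPM. The part of endothelial cells in the Dll4 values was not tested.

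Against ventricles, Dll4 in ventricle-like parts was at -5.18 on the log2 scale (edgeR standard error 1.44, adjusted p = 0.0403). This fitted value rests on few fragments and was -8.59 without ventricle-like library 2. It was -5.11, -5.15 and -5.32 without ventricular library 1, 2 or 3, where the call was lost (edgeR adjusted p = 0.126, 0.127 and 0.114) and the calls over all genes fell from 2859 to between 1116 and 1212. The call was also lost without ventricle-like library 1, at -4.73 (edgeR adjusted p = 0.0896). The sign was kept with scaling to the cardiomyocyte markers (-2.02, edgeR adjusted p = 0.219) and to the endothelial markers (-2.58, edgeR adjusted p = 0.0503). In atrium-like parts Dll4 was at -3.79 against atria (standard error 1.19, edgeR adjusted p = 0.0537). It was called by DESeq2 (adjusted p = 0.00195), limma-voom (adjusted p = 0.0428), and limma on log2(FPKM + 1) and log2(FPKM + 0.1) (adjusted p = 0.00582 and 0.00733). edgeR called it with a minimum count of 50 (adjusted p = 0.0460) and without atrium-like library 1 or 2 (adjusted p = 0.0118 and 0.0476). Scaled to the cardiomyocyte markers it was at -0.79 (edgeR adjusted p = 0.483), and to the endothelial markers at -0.0069 (standard error 1.26).

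Jag1 (chromosome 2, 137081451 to 137116520, minus strand), a Jagged ligand of endocardium and outflow tract, was higher in atria of E11.5H. Its FPKM was 12.6, 12.3 and 12.6 in atria and 7.87, 5.63 and 4.33 in ventricles. The chambers did not overlap, and the atrial libraries differed less than the ventricular ones. Jag1 was 2.01-fold higher in atria, or 1.01 on the log2 scale (edgeR standard error 0.16, adjusted p = 0.00282). The value lay just past the limit of 1, and it was under it without atrial library 1 (0.99) or 3 (0.99) and without ventricular library 2 (0.96) or 3 (0.84). It was also under the limit with endothelial scaling (0.97) and by limma on log2(FPKM + 1) (0.99). The same held when all 12 libraries shared a fit (0.99, edgeR adjusted p = 0.638). With cardiomyocyte scaling it was called, at 1.58.

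In HOs the FPKM of Jag1 was 1.07, 4.75 and 2.85 in atrium-like parts and 7.85, 7.20 and 3.34 in ventricle-like parts. The parts overlapped, with the highest values in ventricle-like libraries (log2 fold change -0.99, standard error 0.54, edgeR adjusted p = 0.750). The difference of the chamber differences was -1.97 (standard error 0.60, edgeR adjusted p = 0.277, DESeq2 adjusted p = 0.0472). Ventricle-like parts overlapped the ventricles of E11.5H (log2 fold change -0.042, standard error 0.37, edgeR adjusted p = 0.940).

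Atrium-like parts had 4.0-fold less Jag1 than atria after TMM normalization (log2 fold change -2.0, standard error 0.44, edgeR adjusted p = 0.0181), with a sign that turned under scaling to the cardiomyocyte markers (1.30) and to the endothelial markers (1.72). Values of -1.99 to -2.06 were found without atrial library 1, 2 or 3 or atrium-like library 3, and the call was lost in each of these fits (edgeR adjusted p = 0.0686, 0.0632, 0.0639 and 0.0546).

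Jag2 (chromosome 12, 112908590 to 112929495, minus strand), the other Jagged ligand, was at 4.05, 4.65 and 3.84 FPKM in atria and 2.66, 2.83 and 2.23 FPKM in ventricles of E11.5H. The atrial libraries all lay above the ventricular ones, at a log2 fold change of 0.63 that passed on p but not on size (standard error 0.15, edgeR adjusted p = 0.0225). HOs had 1.74, 1.03 and 5.72 FPKM of Jag2 in atrium-like parts and 3.59, 3.62 and 7.95 FPKM in ventricle-like parts. Library 3 of each part was the highest of its group. Jag2 was the only one of the 10 genes with every library of an HO part above every library of its chamber, namely ventricle-like parts against ventricles, where 29.6% of all genes were (log2 fold change 0.88, standard error 0.36, edgeR adjusted p = 0.117). It was called there with scaling to the cardiomyocyte (3.36) or endothelial (5.51) markers, as were 13386 and 14455 of all 15094 genes in that direction. Atrium-like parts overlapped atria, at -0.37 (standard error 0.63, edgeR adjusted p = 0.683).

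**Figure D4:**
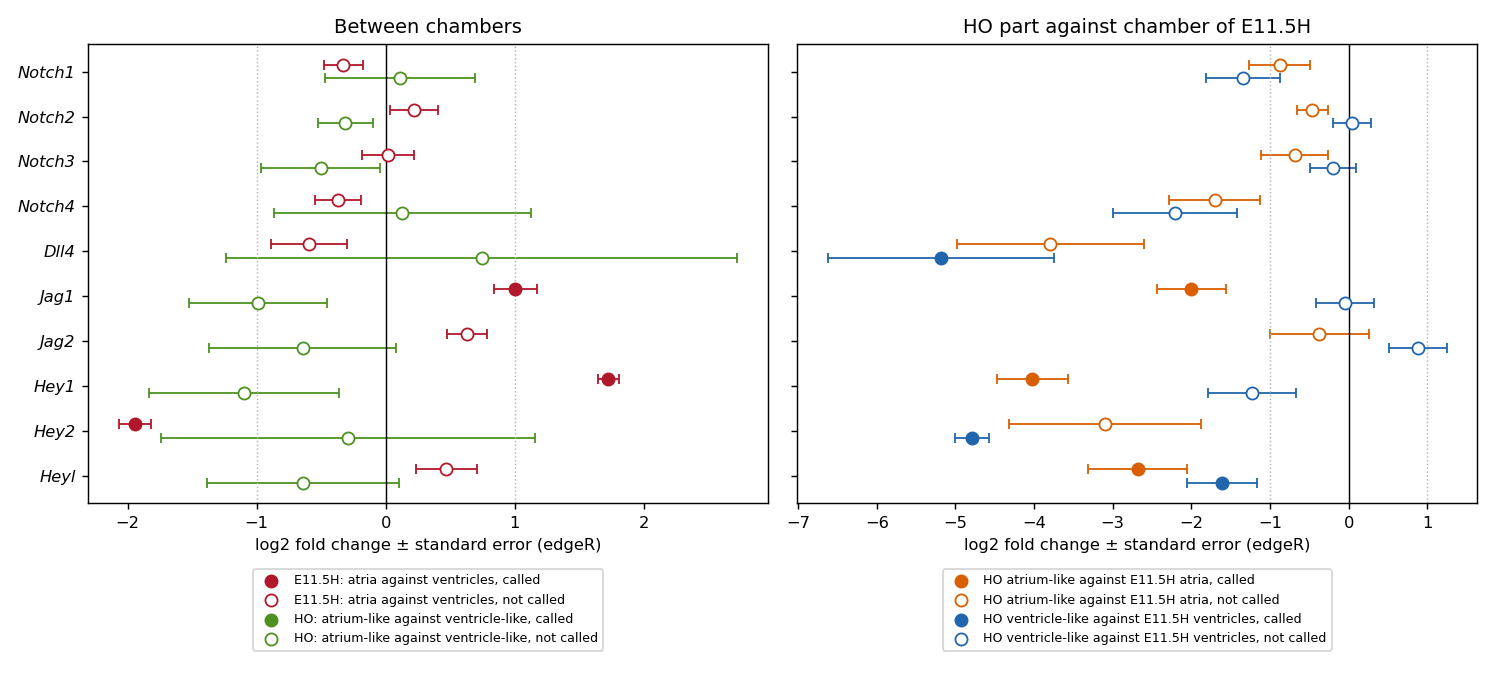
log2 fold changes of the 10 genes from edgeR with TMM normalization (horizontal axes, bars of 1 standard error, dotted lines at -1 and 1), between chambers on the left and of each HO part against its chamber on the right, with filled points for called genes. The standard errors run from 0.083 to 0.29 between the chambers of E11.5H and from 0.21 to 1.98 between the parts of HOs.

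None of the 4 receptors was called by edgeR in a pairwise comparison or in the difference of the chamber differences with all libraries and TMM normalization, and Notch4 was called when all 12 libraries shared a fit. Notch1 (chromosome 2, 26457902 to 26503822, minus strand), the main receptor of endocardium and arteries, was at 4.94, 7.03 and 6.89 FPKM in atria, 7.60, 8.92 and 6.04 FPKM in ventricles, 1.45, 5.26 and 2.81 FPKM in atrium-like parts and 1.38, 5.46 and 2.72 FPKM in ventricle-like parts. Library 2 of each HO part, which had the highest mean log2 CPM of the endothelial markers, was also the highest for Notch1. Ventricle-like library 1 had the highest summed CPM of these markers in its part and the lowest Notch1. The log2 fold change was -0.87 in atrium-like parts against atria (standard error 0.39, edgeR adjusted p = 0.132) and -1.34 in ventricle-like parts against ventricles (standard error 0.47, edgeR adjusted p = 0.0768). Without library 2 of the HO part, edgeR called both, at -1.34 (adjusted p = 0.0151) and -1.94 (adjusted p = 0.0132). With all libraries, Notch1 in ventricle-like parts was called by DESeq2 (adjusted p = 0.0153) and limma-voom (adjusted p = 0.0446). With scaling to the endothelial markers the sign turned, to 2.84 and 2.64, and with scaling to the cardiomyocyte markers it turned to 2.48 and 1.53.

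Notch4 (chromosome 17, 34564295 to 34588543, plus strand), an endothelial receptor, was at 1.84, 2.35 and 1.53 FPKM in atria and 2.20, 2.58 and 2.22 FPKM in ventricles of E11.5H. HO levels of Notch4 were 0.847, 0.429 and 0.219 FPKM in atrium-like parts and 0.458, 1.08 and 0.0934 FPKM in ventricle-like parts. All 6 HO libraries lay below all 6 libraries of E11.5H. The log2 fold change was -1.71 for atrium-like parts (standard error 0.58, edgeR adjusted p = 0.0679) and -2.21 for ventricle-like parts (standard error 0.79, edgeR adjusted p = 0.0805). DESeq2 called both (adjusted p = 0.0218 and 0.0129), limma-voom called both (adjusted p = 0.0286 and 0.0319), and edgeR called the second when all 12 libraries shared a fit (-2.22, adjusted p = 0.0483). edgeR called the first without atrium-like library 1 (-2.51, adjusted p = 0.0106) and the second without ventricle-like library 2 (-3.15, adjusted p = 0.0254) or 3 (-1.75, adjusted p = 0.0194). The sign turned under both marker scalings, to 2.24 and 2.44 in atrium-like parts and to 0.84 and 1.34 in ventricle-like parts.

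Notch2 (chromosome 3, 98013538 to 98150367, plus strand) is a receptor used in many tissues. Its FPKM was 5.57, 5.79 and 4.99 in atria, 5.80, 4.71 and 2.94 in ventricles, 2.49, 4.81 and 3.46 in atrium-like parts and 5.17, 5.25 and 4.34 in ventricle-like parts. Ventricle-like parts overlapped ventricles, with a log2 fold change near 0 (0.047, standard error 0.24, edgeR adjusted p = 0.897), and the values with scaling to the cardiomyocyte (2.77) or endothelial (4.39) markers were close to the shift of the median of all genes (2.69 and 4.37). The atrium-like libraries all lay below the atrial ones, at -0.46 (standard error 0.20, edgeR adjusted p = 0.124).

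Notch3 (chromosome 17, 32120820 to 32166890, minus strand), a receptor of pericytes and smooth muscle, overlapped between the groups in every comparison. Its FPKM was 2.67, 4.63 and 4.47 in atria, 3.21, 3.59 and 4.23 in ventricles, 0.963, 3.60 and 2.17 in atrium-like parts and 2.11, 3.74 and 4.47 in ventricle-like parts. The log2 fold changes of the HO parts against their chambers were -0.69 (standard error 0.43, edgeR adjusted p = 0.259) and -0.20 (standard error 0.29, edgeR adjusted p = 0.638). Between the chambers of E11.5H it was 0.017 (standard error 0.20, edgeR adjusted p = 0.971).

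Over the 10 genes, 7 had atrium-like libraries that all lay below the atrial ones, where 30.3% of all genes did, and 6 had ventricle-like libraries that all lay below the ventricular ones, where 21.1% did. The median log2 fold change of the 10 was -1.85 in atrium-like parts, against 0.062 over all tested genes, and -1.29 in ventricle-like parts, against 0.093. All 10 were negative in atrium-like parts and 8 in ventricle-like parts. In E11.5H, 4 of the 10 did not overlap between chambers, where 33.1% of all genes did not, and in HOs 0 of the 10 were free of overlap, where 13.3% of all genes were. The median was 0.12 between the chambers of E11.5H, against 0.014 over all genes, and -0.41 between the parts of HOs, against -0.027.

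By mean FPKM in atria of E11.5H the order was Hey1, Jag1, Hey2, Notch1, Notch2, Heyl, Jag2, Notch3, Dll4 and Notch4, from 41.6 ± 0.425 for Hey1 to 1.90 ± 0.414 for Notch4 (SD, n = 3). Notch1 at 6.29 ± 1.17 and Hey2 at 7.05 ± 0.691 overlapped there, as did Heyl, Jag2 and Notch3 (SD, n = 3). In ventricles Hey2 led at 25.9 ± 3.43, before Hey1 at 12 ± 0.958 and Notch1 at 7.52 ± 1.44 (SD, n = 3). In ventricle-like parts Jag1 at 6.13 ± 2.44, Hey1 at 5.50 ± 4.71, Jag2 at 5.05 ± 2.51 and Notch2 at 4.92 ± 0.506 overlapped (SD, n = 3), and Dll4 was last at 0.109 ± 0.174. In atrium-like parts Notch2 was first at 3.59 ± 1.17 and overlapped Notch1 at 3.17 ± 1.93, and Dll4 was last at 0.171 ± 0.148 (SD, n = 3).

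Some fragments may belong to overlapping genes, since the use of strand in counting is not given. Dll4 shares its first bases, 119325784 to 119326197, with Gm14207 on the opposite strand, which had at most 11.1 fragments in any library of E11.5H, against at least 194 for Dll4, and from 0 to 10.3 fragments in the HO libraries, against 0 to 35 for Dll4. Notch1 shares 26457902 to 26459381 with 0610009E02Rik on the opposite strand, which had at most 29.0 fragments in any library, against at least 392 for Notch1.

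The other 48 pathway genes in the table were grouped as ligands, processing enzymes, nuclear complex, inhibitors and targets. Between the chambers of E11.5H, 45 were tested, and Dner, a non-canonical ligand, was called higher in atria (log2 fold change 3.20, standard error 0.42, edgeR adjusted p = 7.57e-04). Bmp10, a growth factor of trabecular muscle, was called lower in atria (-1.50, standard error 0.15, edgeR adjusted p = 1.59e-04). Their median log2 fold change was 0.046, against 0.014 over all genes. Between the parts of HOs, edgeR called 0 of 45.

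Against E11.5H, 3 of 46 tested genes were called higher and 4 lower in atrium-like parts, and 9 of 46 higher and 2 lower in ventricle-like parts. Over all genes 16% were called higher and 8.81% lower in atrium-like parts, and 11.6% and 7.35% in ventricle-like parts. The medians of the 46 were 0.36 and 0.27, against 0.062 and 0.093 over all genes. The non-canonical ligand Dlk1 was at 9.36 to 20.6 FPKM in E11.5H and 69.4 to 260 FPKM in HOs, with log2 fold changes of 3.26 in atrium-like and 3.61 in ventricle-like parts (edgeR adjusted p = 0.00372 and 0.00366). Dlk2, its paralog, was called only in ventricle-like parts, at 4.83 (edgeR adjusted p = 0.0163), and the parts of HOs did not differ by the test (edgeR adjusted p = 0.750). Dtx4, a ubiquitin ligase of the Deltex family that acts on Notch, was at 2.06 and 2.97 (edgeR adjusted p = 0.0189 and 0.00981). Aph1c, a gamma-secretase subunit, was at 3.14 and 3.06 (edgeR adjusted p = 0.0130 and 0.00553), but its near-identical copy Aph1b may share its fragments. Dll3, a ligand that does not activate Notch in neighbors, had at most 2 fragments in any ventricular library and 13 to 151 fragments in ventricle-like libraries, at 0.185 to 2.14 FPKM (edgeR adjusted p = 0.0313).

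Among the genes called lower in HOs, Bmp10 had at most 1 fragment in any HO library, against 4.88 to 5.46 FPKM in atria and 13.3 to 15.1 FPKM in ventricles of E11.5H (edgeR adjusted p = 0.00275 and 0.00118). Mfng, a fringe glycosyltransferase that modifies Notch receptors, was at -2.42 in atrium-like parts (edgeR adjusted p = 0.0328). Efnb2, an arterial target gene, was at -1.47 in atrium-like parts (edgeR adjusted p = 0.0117) and at -0.44 in ventricle-like parts (edgeR adjusted p = 0.322).

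Rbpj, the DNA-binding partner, was at 6.49 to 8.86 FPKM in E11.5H and 4.71 to 13.5 FPKM in HOs, with log2 fold changes of 0.51 in atrium-like and 0.59 in ventricle-like parts (edgeR adjusted p = 0.272 and 0.0214, under the limit on size). Hes1, the best known target outside the Hey family, was at 15.6 to 25.5 FPKM in E11.5H and 21.9 to 31.4 FPKM in HOs, at 0.79 and 0.31 (edgeR adjusted p = 0.0191 and 0.246). Nrarp, a target that feeds back on the pathway, was at -1.06 and -1.44 (edgeR adjusted p = 0.161 and 0.117). Dll1, a further ligand, was at 0.20 and -1.83 (edgeR adjusted p = 0.801 and 0.0726). Marker scalings were not run for single genes of these lists.

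**Figure D5:**
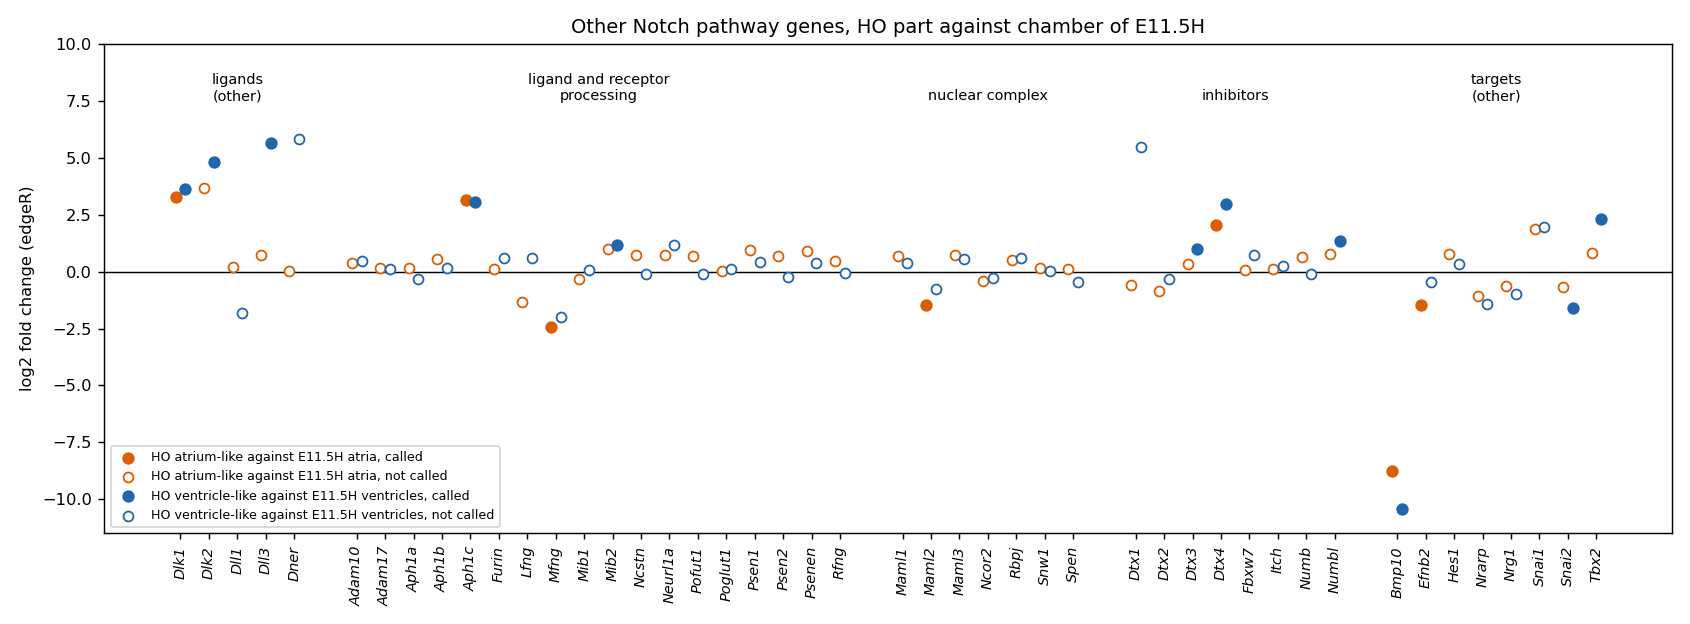
Fitted edgeR log2 fold changes (vertical axis, TMM normalization) of the other Notch pathway genes tested in HO parts against the chambers of E11.5H, grouped by role, with filled points for called genes. Of 46 genes tested, 3 were called higher and 4 lower in atrium-like parts and 9 higher and 2 lower in ventricle-like parts, and the lowest points, of Bmp10, rest on at most 1 fragment in an HO library.

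The genes whose log2 CPM over the 12 libraries ran most like that of Hey1, among 13196 genes with a mean of at least 5 CPM in a group, were Runx1t1, Arxes1 and Tgs1, with Pearson r of 0.975, 0.969 and 0.963. Those most like Hey2 were Kcnk3, Hk1 and Dact3, with r of 0.983, 0.983 and 0.976. Those most like Dll4 were Sdk1, Sox3 and Cdkn1c, with r of 0.976, 0.972 and 0.972. These points share their libraries and depth, and the gap between HOs and E11.5H enters each r.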

How the data were processed

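The 12 libraries were those of atria and ventricles of E11.5H and of both parts of HOs, grouped by the labels. Per the methods, reads were aligned by STAR to GRCm38/mm10, and the authors then derived a fragment number and an FPKM value per gene. The STAR version, annotation, counting tool and use of strand are not given in the sources used here. The authors deposited expected counts, fragments per gene without normalization, of which 23.8% were not whole (tolerance 1e-06) and which were rounded for the tests. The deposited FPKM values divide by transcript width and library total, with no correction for composition.

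Counts were tested with edgeR 4.0.16 under R 4.3.3 (TMM, low counts removed by filterByExpr at a minimum of 10), each pair of groups in its own fit. The edgeR standard errors are the absolute log2 fold change divided by the square root of the test's F statistic. They are approximate, since the test itself does not return them. Alternatives were DESeq2 1.42.0, limma 3.58.1, pseudocounts of 0.1 and 1 FPKM, other filters, a shared fit of all libraries, scaling to 2 marker lists, totals without hemoglobin genes, a block for the replicate number, and fits without each library. Sums of CPM use all fragments assigned to genes. Limits for a count of 0 use 3 fragments and cover counting error only. The fit was also run on simulated counts, in which every gene had the same biological coefficient of variation. Those counts lacked the differences in composition between HO libraries, so that run does not show how reliable the calls in HOs are.

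The 10 genes, the 48 other pathway genes and the marker lists were chosen with earlier results of these data known. All 10 genes are named, with at most 6 called pathway genes per comparison (largest log2 fold change), Hes1, Nrarp, Rbpj, Efnb2 and Dll1, and the 3 genes most like Hey1, Hey2 and Dll4. Plots were drawn with matplotlib 3.10.9.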

Additional observations from a re-analysis of the deposited data

How the results depend on the processing

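The replicate numbers were not taken to pair the libraries, since neither the labels nor all correlations gave a pairing, with same-number correlations of deviations from the group means of -0.0090, 0.0073 and 0.027 in E11.5H and -0.056, 0.62 and 0.41 in HOs, where atrium-like libraries 2 and 3 correlated best with their own numbers and atrium-like library 1 with ventricle-like library 3 (0.50). With the replicate block, all-gene calls were 621 in place of 712 between the chambers of E11.5H, 0 in both fits between HO parts, 2806 in place of 3821 for atrium-like and 2003 in place of 2859 for ventricle-like parts, and 5 in place of 25 for the interaction. Under this block Dll4 in ventricle-like parts had an edgeR adjusted p of 0.0508 and Notch3 between the chambers of E11.5H was at -0.0069. With 3 libraries a group, the common biological coefficient of variation between HO parts was 0.677, and the smallest edgeR adjusted p over all genes was 0.750. Standard errors there were 0.73 for Hey1 and 1.45 for Hey2, beside log2 fold changes of 1.73 and -1.94 between the chambers of E11.5H. Small differences, and differences of the size found in E11.5H, may have gone uncalled, so the lack of calls does not show that the parts were alike.

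The number of called genes among the 10 was 3 between the chambers of E11.5H, 0 with all 12 libraries in 1 fit, 5 with cardiomyocyte scaling and 2 with endothelial scaling. The calls over all genes were 712, 30, 1954 and 739 in these fits. In atrium-like parts the number among the 10 was 3 in the report, 6 by DESeq2, limma-voom or limma on log2(FPKM + 0.1), and 5 on log2(FPKM + 1), all lower in HOs. Over all 15418 genes these fits called 3821, 4794, 3433, 4347 and 3454, in that order. With cardiomyocyte and endothelial scaling the number among the 10 was 6 and 5, all higher in HOs. In those fits 14001 and 13680 of all 15418 genes were called. In ventricle-like parts the number was 3 in the report and 5 by DESeq2 or limma-voom, all lower in HOs. Over all 15094 genes these fits called 2859, 3742 and 2288. With cardiomyocyte and endothelial scaling the number among the 10 was 5 and 7, all higher in HOs except Hey2, called lower with cardiomyocyte scaling. In those fits 13468 and 14504 of all 15094 genes were called. In the interaction the number was 0, and 2 by DESeq2, with 25 and 455 calls over all genes. Without each library in turn the number among the 10 ran from 2 to 3 between the chambers of E11.5H, from 1 to 6 in each HO part and from 0 to 1 in the interaction. The calls over all genes then ran from 538 to 765 in E11.5H and from 1662 to 5495 in atrium-like parts. They ran from 1116 to 3725 in ventricle-like parts and from 2 to 216 in the interaction. Among all genes, cardiomyocyte scaling called 13878 higher and 123 lower in atrium-like parts, where TMM gave 2462 and 1359. The Hey1 to Hey2 ratio of atria minus ventricles of E11.5H was 3.45 with a pseudocount of 1 FPKM and ran from 3.60 to 3.72 without each library. That of atrium-like minus ventricle-like parts ran from -0.77 to 0.58 without each library, so its sign turned.

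Signs turned as follows, each as a log2 fold change, with causes not tested. Between the chambers of E11.5H, Notch1 was at 0.27, Notch4 at 0.22 and Dll4 at 0.0099 with cardiomyocyte scaling, and Notch3 at -0.053 with endothelial scaling and -0.0047 by limma-voom. Between HO parts, cardiomyocyte scaling gave Notch2 1.06, Notch3 0.82, Jag1 0.11, Jag2 0.83, Hey2 0.68 and Heyl 0.57, endothelial scaling gave Notch1 -0.18, and limma on log2(FPKM + 1) gave Notch4 -0.015. In atrium-like parts against atria, cardiomyocyte scaling gave Notch1 2.48, Notch2 3.04, Notch3 2.63, Notch4 2.24, Jag1 1.30, Jag2 2.97 and Heyl 0.77. Endothelial scaling gave Notch1 2.84, Notch2 3.46, Notch3 3.08, Notch4 2.44, Jag1 1.72, Jag2 4.07, Hey1 0.087, Hey2 0.75 and Heyl 0.59. In ventricle-like parts against ventricles, cardiomyocyte scaling gave Notch1 1.53, Notch3 2.44, Notch4 0.84, Jag1 2.77, Hey1 1.76 and Heyl 1.22. Endothelial scaling gave Notch1 2.64, Notch3 4.22, Notch4 1.34, Jag1 4.17, Hey1 2.43 and Heyl 2.52, and limma on log2(FPKM + 1) gave Jag1 0.0023. In the interaction, cardiomyocyte scaling gave Notch2 0.27 and Notch3 0.19.

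Without each library in turn, signs also turned within these ranges. Notch3 between the chambers of E11.5H ran from -0.11 to 0.22. Between HO parts Notch1 ran from -0.32 to 0.73, Notch4 from -0.68 to 1.07 and Hey2 from -0.83 to 0.28. Jag2 in atrium-like parts ran from -1.38 to 0.041. In ventricle-like parts Notch2 ran from -0.18 to 0.25, Notch3 from -0.47 to 0.042 and Jag1 from -0.30 to 0.22. Notch4 in the interaction ran from -0.30 to 1.42. Of 639 values of single genes under the other alternatives, 553 kept direction and side of the threshold.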
